A study of Mus musculus with 28 samples.

Results

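The outermost periportal pairs are the wells at the extreme periportal end of the mouse liver lobule, each holding a hepatocyte sorted together with an attached CD31+ cell, and they were compared with the pairs next to them on the same axis. They were chosen by measured values: in each well, the summed UMIs of Cyp2e1, Cyp2c29 and Oat and the summed UMIs of Cyp2f2 and Hal were each divided by their mean over wells, and the share s of the first in the sum of both was taken. The lowest 10% of s gave 465 of 4621 pair wells (10.1%, owing to equal values at the limit), and the wells between the 10th and the 33rd percentile gave 1061. The 1570 wells from the 33rd to the 67th percentile, called middle here, and the 1525 above, called pericentral, serve to show how each gene runs on along the axis. The whole series held 8341 wells in 2 tables. All pairs came from livers of C57BL/6 male mice kept on a reversed light cycle, fasted for 2 hours from 7 AM and anaesthetised with ketamine and xylazine. Per the labels there were 3 such mice, with 2 libraries from a mouse aged 6 weeks and 8 and 7 libraries from the other two, aged 7 weeks. Single non-parenchymal cells from 2 further mice, aged 3 and 4 months, served here only to choose endothelial genes. All mice carried the same treatment and no genetic change is given. The comparison is of positions within the liver as s orders them, but the 2 groups also differ in their make-up by blocks of well numbers, given below.

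Blood enters a liver lobule beside the portal vein and the hepatic artery and drains into the central vein, so hepatocytes at the portal edge meet the most oxygen and nutrients. Periportal hepatocytes are known for breakdown of amino acids, urea synthesis, glucose production and secretion of plasma proteins. Pericentral hepatocytes, under Wnt signals from the endothelium of the central vein, carry glutamine synthesis, bile acid synthesis and cytochrome P450 enzymes. The row of hepatocytes that touches the portal tract, the limiting plate, also borders bile ducts and portal fibroblasts. RNA was counted by MARS-seq, which sorts cells into plates and gives each mRNA copy a molecular barcode (UMI) near its 3' end, so that copies made by PCR count once.

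No source maps the wells to libraries or mice, so the pair table is 1 sample, no test between positions could be made, and every interval below is a 95% interval for counting error only. Levels are UMIs per 1000000 gene UMIs without the 5 genes of the rule. The outermost wells had a median of 12089 gene UMIs (range 2477 to 48331) and 2827 genes, and the next wells 9577 UMIs (2455 to 48430) and 2495 genes. Spike-in RNA took 0.634% and 0.741% of UMIs, and mitochondrial rows were empty. Well numbers fall into 17 plate-sized blocks, and among the 15 blocks with over 100 wells the share of outermost wells ran from 2.40% to 19.2%. The block numbers, 1 to 16 and 41, are the same as the numbers in the titles of the pair libraries. The labels give libraries 1 and 2 to mouse 1, aged 6 weeks, 3 to 9 and 41 to mouse 2 and 10 to 16 to mouse 3, but no source states that a block is the library of that number. Blocks 10 to 16 held 111 of the 465 outermost wells among 2115 wells. The next wells were spread otherwise: block 10 gave 11 outermost and 70 next wells, and block 9 gave 59 and 72. Ratios pooled over blocks therefore hold differences between blocks as well as between positions. Blocks 1 and 2 held only 8 and 67 wells and stood apart in acute-phase genes, as given with those genes. If blocks are libraries, these 2 blocks are all the pairs of mouse 1, which was not tested.

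The values that chose the wells are a description. In the outermost wells s ran from 0 to 0.0123 with a median of 0.00663, and 64 wells were at 0. In the next wells it ran from 0.0124 to 0.237 with a median of 0.0516. The last well inside the lower limit had 0.012339 and the first outside it 0.012438. A median of 42 and 38 UMIs of the 5 genes set the score of a well. Cyp2e1, a cytochrome P450 of ethanol metabolism, had 773 UMIs in the outermost and 15382 in the next wells, a median of 1 and 8 per well. Cyp2f2, a periportal cytochrome P450, had 20297 and 29984 UMIs, a median of 37 and 23 per well. Hal, the first enzyme of histidine breakdown, had 2067 and 2438.

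The name periportal held for genes that the rule did not use. Glul, glutamine synthetase of the cells around the central vein, had a level of 85.6 in the outermost, 113 in the next, 231 in the middle and 682 in the pericentral wells. Gls2, the periportal glutaminase that frees ammonia for urea synthesis, ran the other way, at 480, 371, 120 and 32.1. Hepatocyte markers were present in all groups, with Alb at 93679 and 87440 in the outermost and next wells. The 20 endothelial markers together were found in 99.6% and 98.9% of the wells.

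Between the outermost and the next wells most genes differed little, and a small set differed strongly. The 8081 genes that had 100 or more UMIs in the groups together gave a median log2 ratio of outermost over next of -0.05, with the central 95% of genes between -0.53 and 0.36. A gene was called when its fold was at least 1.5 and its counting interval excluded 0. That left 39 genes higher in the outermost wells, 0.483% of those compared, and 124 lower, 1.53%. Higher genes were thus 23.9% of the calls, and 35.9% (52 higher, 93 lower) when a median-of-ratios factor set the scale. Of the 39 higher genes 23 were also higher in the next than in the middle wells by intervals excluding 0, and of the 124 lower genes 47 were also lower there. The intervals were not corrected for the 8081 comparisons. With percentiles of s taken within blocks, 23 of the 39 and 61 of the 124 were called again. The shares over all genes, 0.483% higher and 1.53% lower, are the ones to set beside the calls in each list below that is not endothelial.

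**Figure D1:**
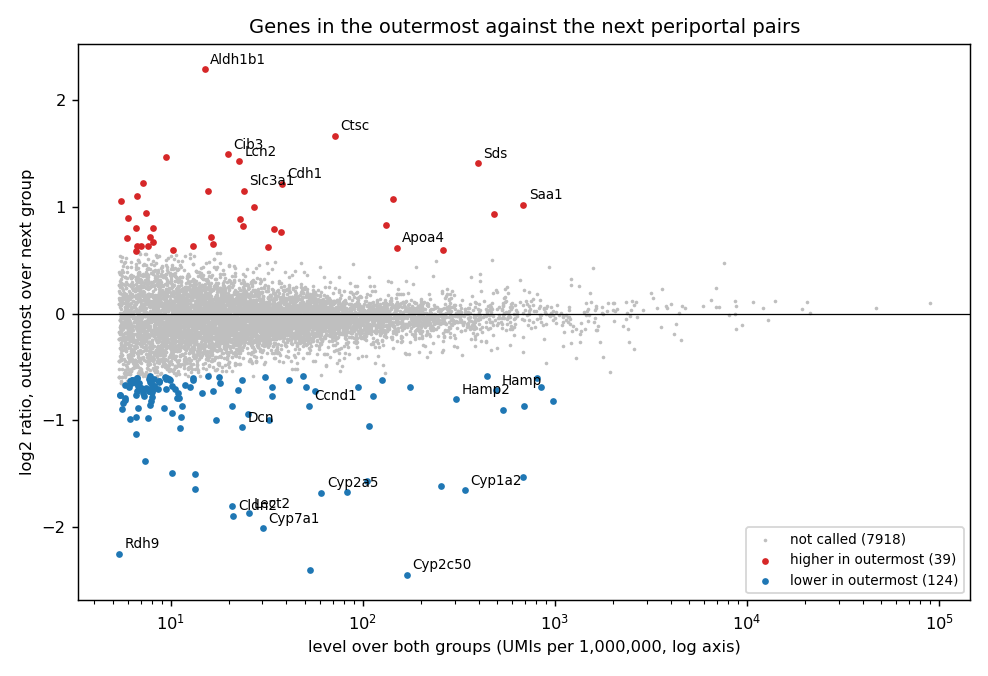
Each point is 1 of 8081 genes, with its level over both groups of wells on the x axis (UMIs per 1000000, log axis) and the log2 ratio of outermost over next wells on the y axis. The 39 higher and 124 lower genes are coloured, and Aldh1b1 (2.29), Ctsc (1.67) and Sds (1.41) stand above most genes of their level, Cyp2c50 (-2.45), Cyp7a1 (-2.01) and Cyp1a2 (-1.66) below.

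The strongest abundant gene of the outermost wells was Sds, serine dehydratase, which turns serine into pyruvate and ammonia. It had 4331 UMIs in the 465 outermost wells and 3078 in the 1061 next wells, a level of 672 against 253, or 2.66-fold (log2 1.41, interval 1.34 to 1.48). In the middle and pericentral wells its level was 14.5 and 8.53. Over the 16 blocks with outermost wells, the outermost level ran from 266 to 1005 with a median of 611, and the next level from 27.9 to 461 with a median of 247. The ranges overlapped, but the outermost level was the higher in all 16 blocks. Sds had a UMI in 91.6% of outermost and 62.0% of next wells, and in 64.3% and 33% when every well was thinned to 2000 UMIs. The thinned share was 3.1% in the middle and 2.0% in the pericentral wells. Over 10 equal groups of wells by s, its level went from 671 to 432, 140, 38.1 and 13.1 in the first 5.

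Ctsc, cathepsin C, a lysosomal protease that activates serine proteases of immune cells, had a similarly steep course. It had 835 UMIs in the outermost and 497 in the next wells, a level of 130 against 40.8 (log2 1.67, interval 1.5 to 1.83), with 2.80 in the middle wells. Its level by block ran from 49.0 to 168 in the outermost and from 26.5 to 87.7 in the next wells, and was higher in the outermost wells of all 16 blocks. Ctsc was found in 67.5% of outermost and 26.5% of next wells, and in 24.1% and 8.7% at 2000 UMIs a well.

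Aldh1b1, a mitochondrial aldehyde dehydrogenase, had the largest called ratio, with 202 against 78 UMIs (log2 2.29, interval 1.91 to 2.69). Its level was 31.3 in the outermost, 6.40 in the next and 0.529 in the middle wells. It was higher in the outermost wells of 15 of 16 blocks, but block 2 reached 202 where the block median was 25.1, and the log2 ratio was 1.22 when the percentiles of s were taken within each block. Only 22.4% of outermost and 5.6% of next wells had a UMI of it, and 1 outermost well held 16.

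The genes with the largest called ratios, Aldh1b1, Ctsc, Cib3 and Gm4956, were also counted together in each well. Cib3, of the calcium and integrin binding family, had 222 against 149 UMIs (log2 1.49, interval 1.19 to 1.80; 0.64 and not called with wells thinned to 2000 UMIs), and the predicted gene Gm4956 had 104 against 71 (1.47, 1.02 to 1.92). All 4 had a UMI in 14 of 465 outermost wells (3.01%, exact interval 1.66 to 5.0) and in 2 of 1061 next wells (0.189%, 0.0228 to 0.679). None of the 1570 middle wells had all 4, which allows a share of up to 0.191% by 3 counts of the total and 0.235% by the exact interval. None of the 4 was seen in 21.9% of outermost, 65.6% of next, 94.0% of middle and 96.2% of pericentral wells. The 4 genes were chosen by their ratios in these same wells, so a larger joint share in the outermost wells follows from that choice. The exact intervals treat wells as independent, though the table is 1 sample. These shares were not set to 1 depth, and the outermost wells were the deepest.

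**Figure D2:**
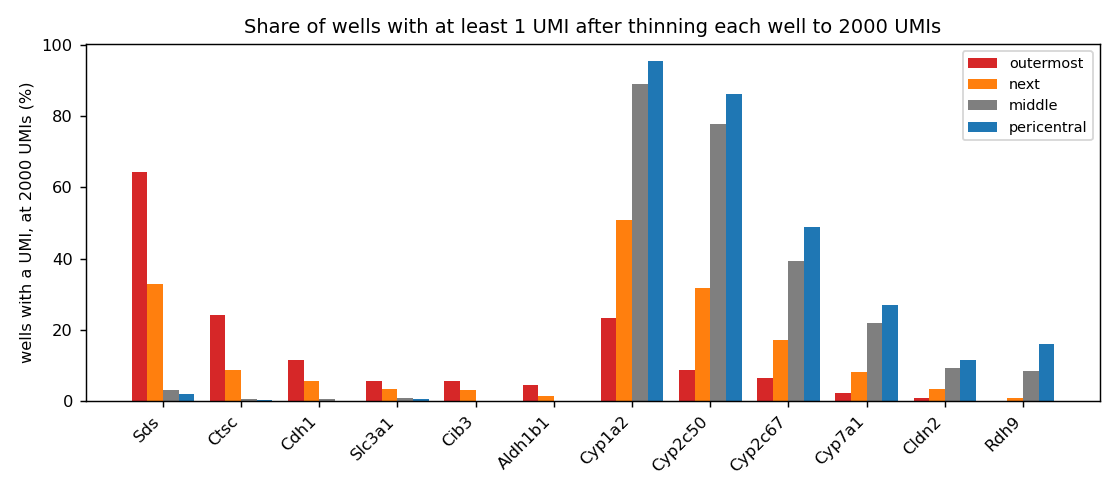
Bars give the percentage of wells with at least 1 UMI of each gene after every well was thinned to 2000 UMIs, in the outermost, next, middle and pericentral wells. Sds falls from 64.3% to 33% between the outermost and next wells, and Cyp1a2 goes from 23.4% to 50.9%.

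The outermost wells were also split once by s, the value that chose them. Higher levels of periportal genes at lower s go with that choice, so the split is a description. The median well there held 1 UMI of Cyp2e1, so their order by s rests on few UMIs. Sds and Ctsc were higher in the part with lower s by counting intervals only, and values by block are not given for this split. The 233 wells of the lowest 5% of s had an Sds level of 711 and the other 232 wells 627 (log2 0.18, interval 0.09 to 0.27). Ctsc stood at 140 and 117 (0.25, 0.05 to 0.46). Aldh1b1 (32.4 and 30.1), Cib3 (34.7 and 34.1) and Cdh1 (60.7 and 59.5) had intervals that included 0. For those 3 a difference within the outermost wells was not detectable at this depth.

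Among the other higher calls, Cdh1, E-cadherin, the adhesion protein known to mark periportal hepatocytes, had 388 against 315 UMIs, a level of 60.2 against 25.9 (log2 1.22, interval 1.0 to 1.44), and 3.86 in the middle wells. It was higher in all 16 blocks, at 31.7 to 179 against 13.8 to 59.0. Slc3a1, the heavy chain of the cystine and dibasic amino acid transporter, had a log2 ratio of 1.15 (0.88 to 1.43; 241 against 205 UMIs) and was higher in 15 of 16 blocks, but was not called, at 0.75, with wells thinned to 2000 UMIs. Aqp4, a water channel, had 66 against 58 UMIs (1.10, 0.57 to 1.64). Fgfr2, a fibroblast growth factor receptor, had 141 against 162 (0.72, 0.38 to 1.05), and was at 0.27, not called, with wells thinned to 2000 UMIs.

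Further higher calls, chosen for naming after their values were seen, were as follows. Hsd17b6, a hydroxysteroid dehydrogenase, had 2166 against 2703 UMIs, a level of 336 against 222 and 56.2 in the middle wells (log2 0.60, interval 0.52 to 0.68), and was higher in all 16 blocks. Nnmt, which methylates nicotinamide, had a level of 184 against 104 (0.83, 0.71 to 0.94). Ugt2b38, a glucuronosyltransferase of a family of near-identical genes whose reads may be shared, stood at 220 against 104 (1.08, 0.97 to 1.19). Cryl1, which oxidises gulonate, stood at 40.2 against 20.1, and 1.85 in the middle wells (1.0, 0.74 to 1.26). The sulfotransferase Sult5a1 had 74 against 60 UMIs (1.22, 0.71 to 1.74) and was higher in 13 of 16 blocks, most with few UMIs. With percentiles of s taken within blocks, 6 blocks had at least 10 of its UMIs, and it was higher in 4 of them. Ctnnbip1, an inhibitor of beta-catenin, had a level of 32.7 against 17.7, with 3.60 and 1.59 in the middle and pericentral wells (0.89, 0.61 to 1.17). With wells thinned to 2000 UMIs Cryl1 was at 0.19 and Ctnnbip1 at 0.40, neither called.

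**Figure D3:**
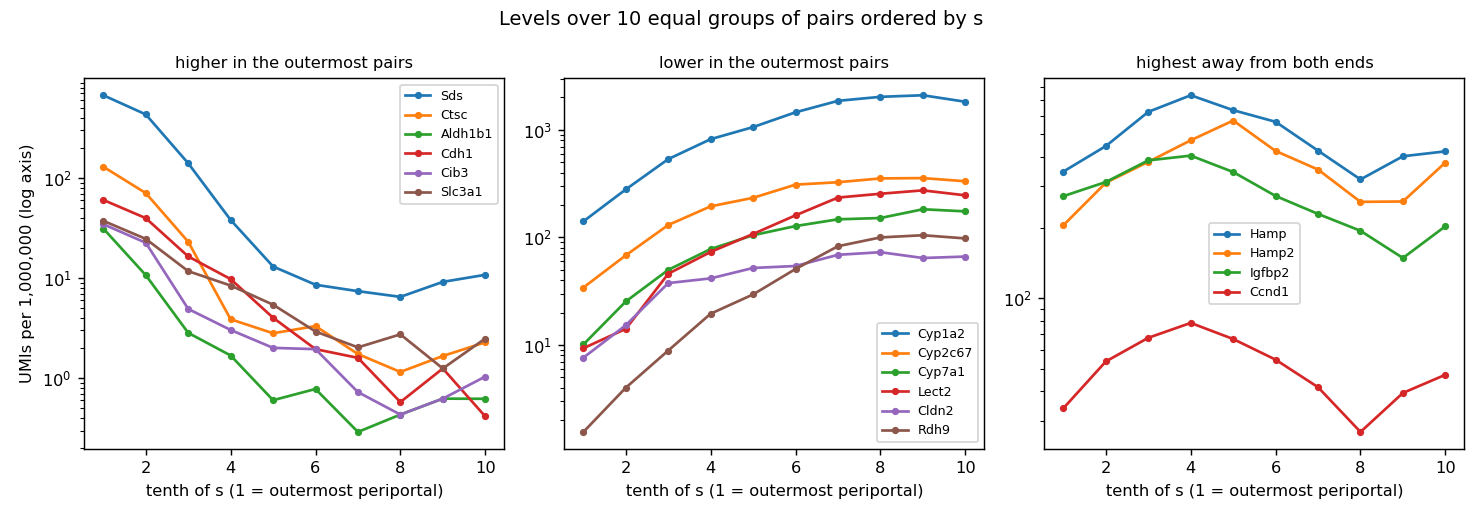
Lines give the level (UMIs per 1000000, log axes) in 10 equal groups of wells ordered by s, from the outermost periportal group at 1. Sds falls from 671 in the first to 432 and 140 in the next 2 groups, Cyp1a2 climbs from 141 to 280 and 535, and Hamp, Hamp2, Igfbp2 and Ccnd1 are highest in groups 4 or 5.

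Serine, glycine and histidine breakdown was the amino acid group with the most positive median. Wells were chosen by high Cyp2f2 and Hal, and Hal belongs to histidine breakdown. Higher levels of other periportal genes, those of this pathway among them, go with that choice. Of 11 genes compared 1 was higher, Sds, none was lower, and the median was 0.16 against -0.05 over all genes. The glycine decarboxylase Gldc came next at 0.47 (0.33 to 0.61; 700 against 956 UMIs), and the histidine enzymes Uroc1, Amdhd1 and Ftcd were at 0.23, 0.19 and 0.14. The shared serine and glycine enzymes Shmt2 and Shmt1 were at -0.12 and -0.03. Of 30 other genes of amino acid breakdown none was called, with a median of 0.00. Agxt2l1, a lyase of phosphoethanolamine, was highest among them, at a level of 297 against 211 (0.49, 0.41 to 0.58) and higher in 14 of 16 blocks.

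Urea cycle genes showed small differences that varied by step. None of 11 genes of ammonia and urea handling was called, and the median was 0.03. Cps1 and Arg1, the entry and the last enzyme of the cycle, were nearly level between the groups at 0.03 each, although both were higher in the next wells (1601 and 2484) than in the pericentral wells (1048 and 1411). Between them in the cycle, Otc was at 0.06, Ass1 at 0.27 (0.23 to 0.31) and Asl at 0.22 (0.17 to 0.27). Gls2, which is outside the cycle, was at 0.37 (0.31 to 0.44) and higher in 15 of 16 blocks. Car5a, the mitochondrial carbonic anhydrase that supplies bicarbonate, was lower at -0.52 (-0.75 to -0.30).

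Glucose production was close to flat. None of 9 gluconeogenesis genes was called. Fbp1 was at 0.26 (0.22 to 0.29), Pck1 at 0.07 and G6pc at 0.03. Of 17 genes of glycolysis, fructose and glycogen none was called and the median was 0.00. The regulator Ppargc1a had 213 against 329 UMIs (0.29, 0.04 to 0.54).

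Secreted plasma proteins were mostly level, with a few exceptions. Of 21 carriers and apolipoproteins 1 was higher and 1 lower. Apoa4, an apolipoprotein of triglyceride-rich particles, had a level of 195 against 127 (0.62, 0.51 to 0.73), and Pon1, an esterase carried on HDL, 344 against 642 (-0.90, -0.97 to -0.83). Hemopexin, Hpx, the haem scavenger, was at 0.47 and higher in all 16 blocks, while Alb was at 0.10. By block the outermost level of Hpx reached 24560, where the block median was 8379. With percentiles of s taken within blocks, the median of its block log2 ratios was 0.30. None of 20 coagulation genes (median 0.04) or 16 complement genes (median -0.04) was called.

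Of 14 acute-phase genes 4 were higher, Lcn2, Saa1, Saa2 and Orm2, and 1 was lower, Hamp. The list median was 0.22, and over all genes 0.483% were higher and 1.53% lower. Those 4 calls rested on a few wells. Block 2, with 15 outermost and 9 next wells, gave 78.7% of the Saa1 UMIs of the outermost group, 90.1% of Saa2, 77.0% of Lcn2 and 67.8% of Orm2. In block 2 the Saa1 level was 15000 in outermost and 16020 in next wells, and without blocks 1 and 2 it was 231 and 180. Saa2 without those blocks stood at 73.4 and 82.9, Lcn2 at 9.34 and 7.04 and Orm2 at 16.2 and 12.7. The 3 next wells of block 1 brought the next level of Saa2 outside block 2 to 130. With the ratio stratified by block, the log2 ratio was 0.00 for Saa1, -0.23 for Saa2, 0.47 for Lcn2 and 0.08 for Orm2. In the pooled groups it was 1.02, 0.93, 1.43 and 0.79. Block 2 made up 15 of 465 outermost and 9 of 1061 next wells. Saa1 and Saa2 are near-identical genes, so reads may be divided between them. Haptoglobin, Hp, and Orm1, abundant plasma proteins of the same response, were at 0.23 and 0.31.

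**Figure D4:**
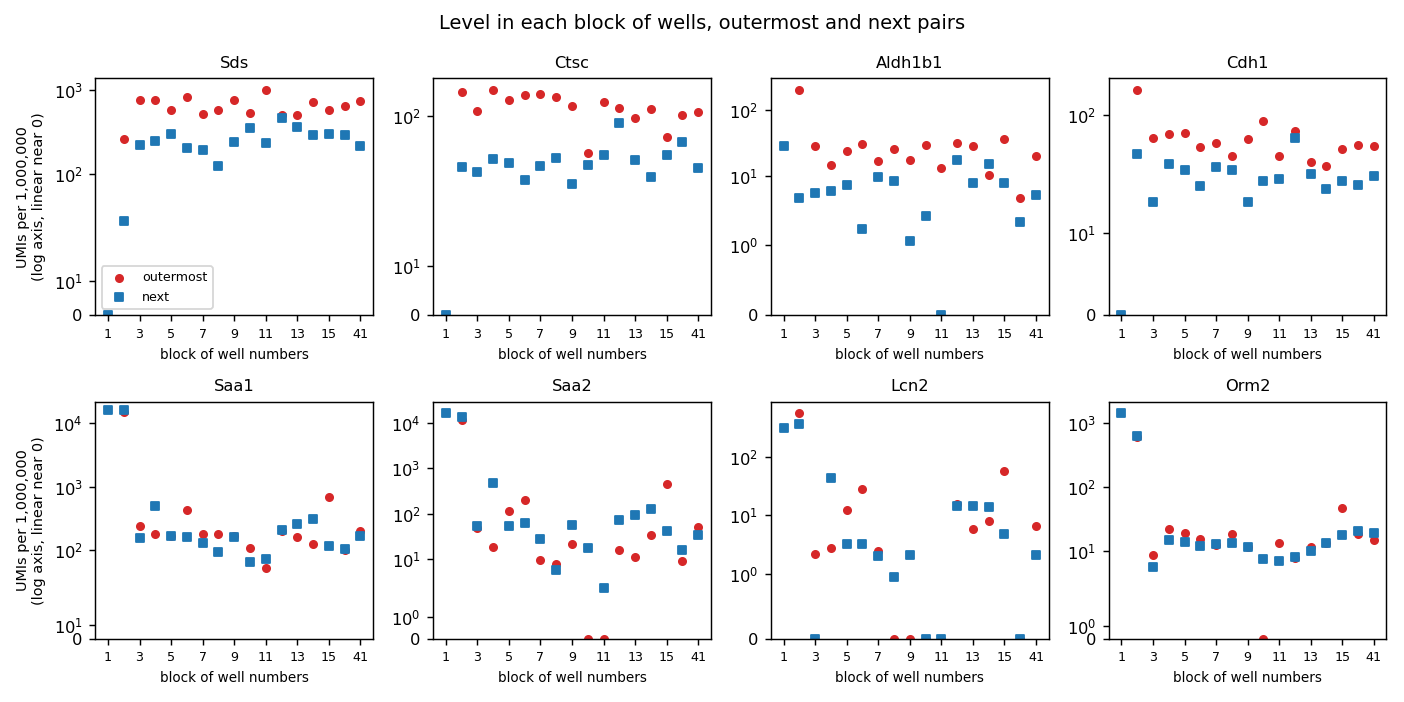
Each panel gives 1 gene's level (UMIs per 1000000, log axis that is linear near 0) in every block of well numbers, for outermost (circles) and next (squares) wells; block 1 has no outermost well. Sds, Ctsc and Cdh1 are higher in the outermost wells of all 16 blocks that have such wells, while Saa1, Saa2, Lcn2 and Orm2 are far higher in blocks 1 and 2 than in the other blocks in both groups.

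Of 22 genes of xenobiotic metabolism 7 were lower, against 1.53% of all genes, and none was higher. The median over the 25 with at least 30 UMIs was -0.41. Wells were chosen by low Cyp2e1, Cyp2c29 and Oat, so lower levels of other pericentral genes go with that choice. Cyp2c50 had 278 UMIs in the outermost and 2868 in the next wells, a level of 43.1 against 235 and 1266 in the pericentral wells (log2 -2.45, interval -2.63 to -2.27). Cyp2c54 had 90 against 897 (-2.40, -2.73 to -2.09). Both were lower in all 16 blocks, and both resemble Cyp2c29, a gene of the rule, so that reads shared between them would tie these values to the choice of wells. Cyp1a2 and Cyp2a5, outside the Cyp2c subfamily, gave the same direction. Cyp1a2, which metabolises caffeine, had a level of 141 against 444 (-1.66, -1.76 to -1.55), with 83.9 to 218 in the outermost and 287 to 619 in the next wells of the 16 blocks, so the block ranges did not overlap. Cyp2a5, the coumarin hydroxylase, was at -1.68 (161 against 973 UMIs) and lower in 15 of 16 blocks. Cyp3a11, the drug-metabolising enzyme with the highest pericentral level of the list, was at -0.55, under the fold limit. Nr1i3, the nuclear receptor CAR that drives many of these genes, was lower at -1.0 (-1.29 to -0.72; 127 against 480 UMIs), and at -0.56, not called, with wells thinned to 5000 UMIs and scored anew.

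Wnt/beta-catenin targets were low in the outermost wells. Of 5 genes with enough UMIs 4 were lower, against 1.53% of all genes, and the median of the 10 with at least 30 UMIs was -0.72. The choice of wells by pericentral genes bears on these targets too. Lect2, a secreted hepatokine, had 60 against 414 UMIs, a level of 9.31 against 34.0 and 258 in the pericentral wells (-1.87, -2.28 to -1.48), and was lower in all 16 blocks. Gulo, the last enzyme of vitamin C synthesis, stood at 46.1 against 137 (-1.57, -1.75 to -1.39), and Notum, a Wnt deacylase, at 6.98 against 13.6 (-0.97, -1.47 to -0.48). Glul, not called, was at -0.40 (-0.54 to -0.26). Of the 10 with at least 30 UMIs, 8 were below 0 and 2 above. Those 2 were the ubiquitin ligases Znrf3 and Rnf43, Wnt feedback inhibitors, with log2 ratios of at most 0.31. Their UMIs (35 against 62, and 21 against 32) were too few to settle a direction.

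Bile acid synthesis was lower at its first step above all. Cyp7a1, the rate-limiting enzyme of the classic pathway, had 65 against 495 UMIs, a level of 10.1 against 40.6, with 117 and 164 in the middle and pericentral wells (-2.01, -2.41 to -1.64). It was lower in 15 of 16 blocks, and 12% of outermost against 30.4% of next wells had a UMI. Slco1b2, an uptake carrier for bile acids and drugs, stood at 653 against 1149 (-0.82, -0.87 to -0.77) and was lower in all 16 blocks. The other 13 of 15 genes were not called, among them Cyp8b1 at -0.20 and the export pump Abcb11 at -0.02. Cldn2, a claudin that forms a cation pore in tight junctions, had 49 against 344 UMIs (-1.89, -2.36 to -1.46).

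Other strongly lower genes were Rdh9, a short-chain dehydrogenase of the retinol dehydrogenase family, with 10 against 90 UMIs (-2.25, -3.36 to -1.31), and Aldh3a2, the fatty aldehyde dehydrogenase, with 51 against 336 (-1.80, -2.26 to -1.37). Csad, an enzyme of taurine synthesis, stood at 108 against 331 (-1.62, -1.74 to -1.5). Regucalcin, Rgn, a calcium-binding lactonase, stood at 306 against 884 (-1.53, -1.60 to -1.46). Csad and Rgn were lower in all 16 blocks. Each of these genes was higher again in the middle and in the pericentral wells, with Aldh3a2 reaching 455 and Rgn 2456.

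A second kind of lower gene was highest away from both ends of the axis. Of 6 genes listed as mid-lobular 3 were lower, against 1.53% of all genes. Hamp, hepcidin, the hormone that limits iron release, had a level of 347 in the outermost, 570 in the next, 590 in the middle and 374 in the pericentral wells (log2 -0.72, interval -0.79 to -0.65). Hamp2 stood at 205, 358, 462 and 299 (-0.80, -0.89 to -0.72), and the pair of genes is similar in sequence. Ccnd1, cyclin D1, which drives entry into the cell cycle, stood at 34.1, 62.1, 61.6 and 36.1 (-0.86, -1.09 to -0.64). Each of the 3 was lower in 14 of 16 blocks, and Ccnd1 was at -0.17 when wells were thinned to 2000 UMIs. Igfbp2, a carrier of insulin-like growth factors, was at -0.39. The 14 other genes of iron and BMP response were not called, with Id1 at 0.09, Smad7 at -0.07 and Tfrc at -0.09.

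Genes with a peak in the next wells, at least 1.2-fold over both neighbours with intervals excluding 0, numbered 19, or 0.235% of those compared. Foxq1, a forkhead transcription factor, had a level of 61.4, 86.5, 59.1 and 50.5 over the 4 groups, and Plbd2, a lysosomal phospholipase B-like protein, 79.3, 95.4, 57.4 and 40.6. Foxq1 was lower in the outermost than in the next wells of 8 of 16 blocks, and Plbd2 of 13. Cyp2a4, with the largest peak (10.4, 20.7, 9.20 and 12.8), was lower in the outermost than in the next wells of 8 of 16 blocks and was higher in the outermost wells, at 0.45, without block 16. Only 2 genes had a 1.5-fold peak.

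Lipid pathways were close to the median of all genes (-0.05). Of 19 genes of fatty acid oxidation and ketogenesis 1 was lower, Cyp4a14 (-0.62), and 19 of the 21 with at least 30 UMIs had a ratio below 0, with a median of -0.09. Of 13 genes of fatty acid synthesis 1 was lower, malic enzyme Me1 (-0.63, -0.76 to -0.49), and Scd1, the stearoyl-CoA desaturase, was at -0.25, while Acly, which makes cytosolic acetyl-CoA, was at 0.28. None of 17 genes of cholesterol synthesis and uptake was called. Fdps, which makes farnesyl pyrophosphate, was at -0.45 (-0.65 to -0.25).

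The same held for housekeeping groups. None of 20 respiratory chain genes (median 0.01), 14 proteasome genes (-0.09) or 18 ribosomal protein genes (-0.11) was called. Of 11 genes of the growth hormone axis Socs2 was lower (-0.63, -0.87 to -0.39) and Igf1 stood at 0.10. Of 14 immediate early and heat shock genes 1 was higher, Egr1, a transcription factor induced within minutes of a stimulus (0.82, 0.54 to 1.10; 213 against 228 UMIs; 0.57 and not called with percentiles within blocks), while Jun was at -0.18, Fos at 0.17 and Hspa1b at -0.21.

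**Figure D5:**
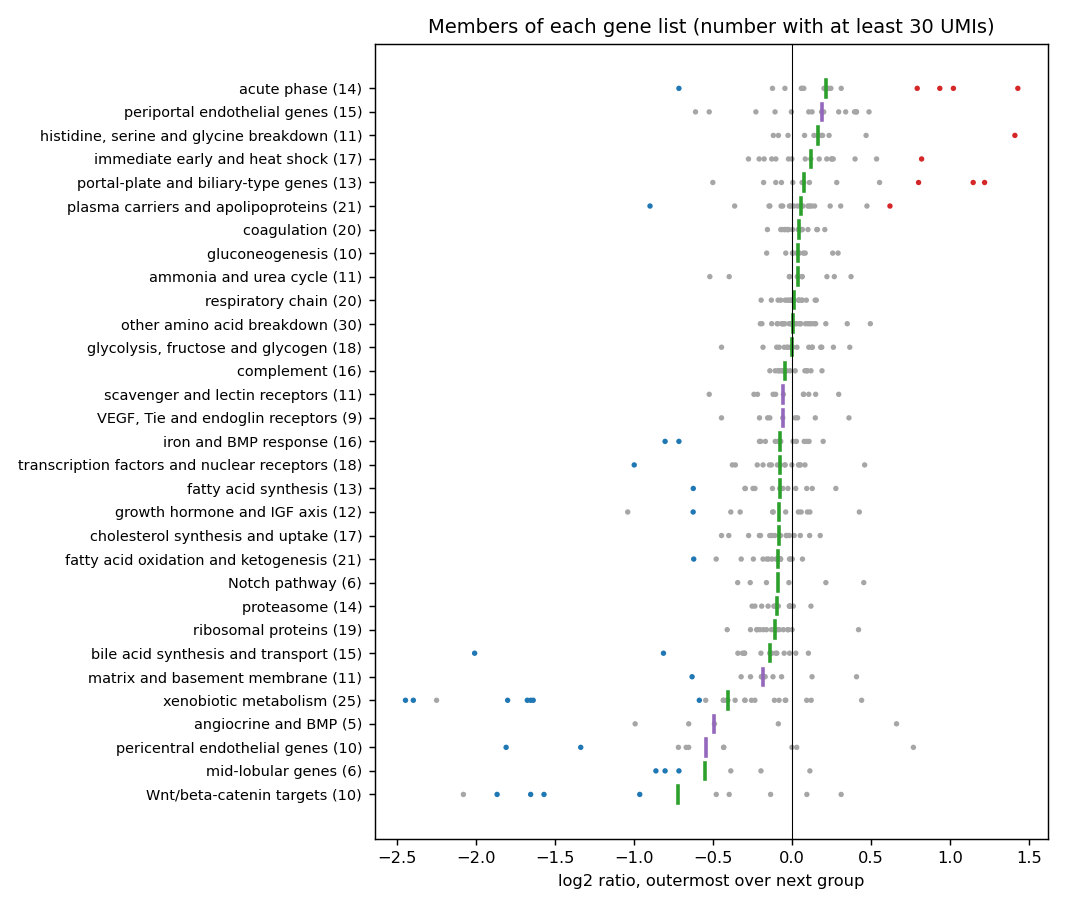
Each row is a gene list with the number of its members that had at least 30 UMIs over both groups. Points are the members' log2 ratios of outermost over next wells (per endothelial UMIs for endothelial genes), coloured where called, and vertical bars the list medians, which run from -0.72 for Wnt/beta-catenin targets to 0.22 for acute-phase genes.

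Genes shared by bile ducts and the limiting plate were partly higher, set against 0.483% of all genes. Of 13 compared 3 were higher: Cdh1, the trefoil peptide Tff3 (157 against 134 UMIs; log2 1.15, interval 0.80 to 1.49) and osteopontin, Spp1 (59 against 64; 0.80, 0.27 to 1.33). With wells thinned to 5000 UMIs and scored anew Tff3 was at 0.59 and Spp1 at 0.25, neither called, and Spp1 was not called with percentiles taken within blocks (0.57). Sox9, the ductal transcription factor also seen in periportal hepatocytes, had 87 against 112 UMIs, a level of 13.5 against 9.20, with 3.49 and 1.85 in the other groups (0.55, 0.13 to 0.97), under the fold limit. Onecut1 was at -0.50 (-0.85 to -0.17). The defining markers of cholangiocytes were at or near 0: Krt7, Krt19 and Tspan8 had no UMI in any group, and Epcam had 0 in the outermost and 1 in the next wells. Of the 9 cholangiocyte markers Sox9 and Spp1 gave all 146 UMIs of the outermost wells. None of 4 Notch genes was called, and Hes1, a Notch target, was at 0.45 (0.02 to 0.88).

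For the CD31+ cell of the pair, 952 genes were taken as endothelial from the single cells, and 504 had at least 30 UMIs. They gave 0.520% of gene UMIs in the outermost and 0.580% in the next wells. Fewer endothelial cells, less endothelial RNA per cell and more hepatocyte RNA cannot be told apart in such a share, so endothelial genes were compared per 1000000 endothelial UMIs. On that scale 14 genes were higher (2.78% of those compared), 11 were lower (2.18%), and the median log2 ratio was 0.02. All 14 higher genes had fewer than 200 UMIs in each group, with Ly6a, a surface antigen of endothelial cells, the most abundant at 143 against 194 (0.64, 0.31 to 0.95). Clca1 had the largest ratio, from 19 against 12 UMIs (1.74, 0.62 to 2.91).

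Of 9 pericentral endothelial genes compared 2 were lower, against 2.18% of all endothelial genes, and none was higher. The median over the 10 with at least 30 UMIs was -0.54. Of those 10, 8 were below 0 and 2 above, Lhx6 (21 against 26 UMIs, 0.77, -0.13 to 1.65) and Ier3 (15 against 31, 0.03). Kit, a receptor tyrosine kinase known from the endothelium near the central vein, had 30 against 160 UMIs, or 895 against 2265 per 1000000 endothelial UMIs (-1.34, -1.95 to -0.77), and was lower in 12 of 16 blocks. It was at -0.11 at 2000 UMIs a well. Cdh13, T-cadherin, had 5 against 37 UMIs (-1.81, -3.52 to -0.46), with 145 and 217 UMIs in the middle and pericentral wells. Wnt2, the angiocrine Wnt ligand, had 25 against 83 (-0.66, -1.36 to 0.00), Thbd, the thrombin receptor thrombomodulin, 14 against 47 (-0.67, -1.65 to 0.21), and Fabp4, a fatty acid binding protein, 100 against 211 (0.00, -0.36 to 0.35).

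Periportal endothelial genes had no call among 15, and 10 of them had a ratio above 0, with a median of 0.19. The ephrin Efnb1 was at 0.49 (0.13 to 0.84; 111 against 167 UMIs), Adam23 at 0.39 (0.06 to 0.73), and the arterial ligands Efnb2 and Dll4 at 0.41 and -0.01 from 22 and 26 UMIs in the outermost wells. Lyve1, the hyaluronan receptor of sinusoidal and lymphatic endothelium, was at -0.53 (-0.74 to -0.31), with 36.3, 58.3, 53.1 and 34.9 per 1000000 gene UMIs over the 4 groups, and per endothelial UMIs was lower in 13 of 16 blocks. None of 9 scavenger and lectin receptors (median -0.06) or of 7 VEGF, Tie and endoglin receptors (-0.06) was called. Of 9 matrix genes 1 was lower, Hspg2, perlecan (-0.63, -1.13 to -0.16), and none of 5 angiocrine and BMP genes was called, with Bmp2 at -0.09.

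Markers of stellate cells and portal fibroblasts summed to 231 UMIs in the outermost and 739 in the next wells (log2 -0.76, interval -0.98 to -0.54), and 3 of the 4 compared were lower: Dcn, decorin (88 against 348; -1.07, -1.42 to -0.72), Reln and Rgs5, of which Reln was at -0.01 and Rgs5 at -0.56, neither called, with percentiles within blocks. They had a UMI in 6.7% and 11.7% of wells at 2000 UMIs each, and their part in the other differences was not tested. The other stellate marker compared, Lrat, was level (41 against 82 UMIs, -0.08, -0.66 to 0.48). Dcn alone gave 88 of the 231 and 348 of the 739 UMIs. Col1a2 had 10 against 37 UMIs, Col3a1 10 against 40, Des 9 against 19 and Pdgfrb 5 against 4. Of the 13, Eln and Gli1 had 0 UMIs in both groups and Thy1 had 1 in each, while Col1a1 had 1 and 4. The 20 endothelial markers had a median of -0.25 per gene UMIs, with 19 of 20 below 0. The 11 Kupffer cell markers summed to 64 and 101 UMIs (0.26, -0.22 to 0.73), with Adgre1, under its older symbol Emr1, at 0. The 8 T and NK cell markers had 0 and 4 UMIs, 5 B and plasma cell markers 1 and 3, 6 neutrophil and monocyte markers 15 and 25, 4 smooth muscle markers 6 and 8, and erythroid markers were level (0.00), nearly all from Alas2. The 6 cycling markers summed to 127 and 271 (-0.18, -0.49 to 0.13), with Mki67 at 3 and 26 UMIs and Top2a at 8 and 31. Hepatocyte markers had a median of 0.06.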

How the data were processed

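The authors deposited raw counts: whole-number UMIs for each gene and well, which the values show were not scaled. The submitters' processing notes name bcl2fastq 2.15.0.4 and mm9. No aligner or gene annotation is given in the sources used here. ERCC spike-in rows (92) were left out. UMIs were summed over wells with Python 3.11.15, numpy 2.4.6, scipy 1.17.1 and pandas 2.3.3. Ratios have exact conditional binomial intervals at 95%, which cover counting error only. No doublet caller was run, since each well is a sorted pair.

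Endothelial genes had at least 10 UMIs per 1000000 in 797 single wells with at least 300 UMIs, 5 UMIs of endothelial markers and at most 1 of immune genes, no less than in 829 immune wells, and 20 times their level in pairs. Named were the 10 largest called folds each way, up to 3 members each way per list with at least 30 UMIs, the 8 largest endothelial folds each way and 8 peaks; others were chosen after their values were seen. Members and lists were chosen with earlier results of these data known. Of the 561 genes on the lists, the tables held 559 (7 under older names); Hmgcs1 and Selenop were not. Scripts were tested on simulated data. No build of the reference matched, so no coordinates are printed.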

Additional observations from a re-analysis of the deposited data

How the results depend on the processing

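No paired analysis was possible because the wells carry no mouse label in the sources used here. The 39 higher, 124 lower, 14 and 11 endothelial and 19 peak genes were recounted under each alternative, of which thinning to 5000 UMIs with new scores and stratifying by block were chosen after seeing the data. With wells weighted equally the counts were 77, 210, 24 and 27. Thinned to 2000 UMIs they were 27, 70, 4 and 4, with 10 peaks, and 8 of the 39 and 21 of the 124 were shared. Scored with Hal alone they were 61, 165, 18 and 19, with 31 peaks. The lowest 5% of s gave 54 higher and 190 lower genes. A minimum of 30 UMIs (100 for endothelial genes) gave 72, 231, 5 and 3, with 31 peaks. Percentiles within blocks gave 42 and 129 genes, 23 and 61 of them among the main calls, and 33 peaks; a ratio stratified by block gave 41 and 129, sharing 31 and 99. Thinned to 5000 UMIs and scored anew, 30 and 105 genes were called, with 13 and 32 shared, and 8 higher endothelial genes. Peaks of 1.5-fold numbered 2. Leaving out each block in turn gave 36 to 47 higher, 115 to 139 lower, 8 to 15 and 9 to 18 endothelial and 10 to 23 peak genes; the 8 came without block 15, the 18 and the 10 without block 2, and 12 peaks without block 5. Of the 163 calls over all genes 17 turned direction in at least 1 setting, 3 higher and 14 lower, among them Cxcl10 in 5 settings (-1.11 to -0.29), Orm2 in 2 (-0.04) and Tie1 in 1 (0.40). Of the genes named by the rule, directions turned for Galntl4 (0.96, thinned to 2000), Wls (0.71) and Dclk3 (0.33; both thinned to 5000), Cyp2a4 (2.03 scored with Cyp2e1 alone, and -1.36 to 0.45 leaving out each block, the last without block 16) and Saa2 (-0.0213 without wells with cholangiocyte or Kupffer cell UMIs, -0.83 to 1.15 leaving out each block, the first without block 2, and -0.23 stratified); the causes were not tested. The ratio of Aldh1b1 ran from 1.22 to 2.98, of Ctsc from 1.37 to 2.27, of Sds from 1.14 to 1.90 and of Cyp2c50 from -2.80 to -2.20. Aldh1b1 was not called when thinned to 2000 or 5000 UMIs, though its log2 ratio was 1.64 at 5000. A call needed 100 UMIs after thinning too, so genes with few UMIs could be lost by count alone. Cyp4a14, Me1 and Socs2 were not called with a median-of-ratios factor (-0.57, -0.57 and -0.58). The median of all genes moved from -0.05 to 0 with a median-of-ratios factor. Depth limits genes near 100 UMIs, and 1 outermost well held over 20% of the UMIs of Cxcl10, as 1 next well did for Cyp2a4.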
